A study of Homo sapiens with 16 samples.

Results

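MYC is 1 of the 9944 gene regions measured in nascent RNA from HAP1, a human cell line that carries close to a single set of chromosomes and goes back to a chronic myeloid leukaemia. It was taken by its symbol from the mRNA table, whose regions include some long non-coding RNA genes. MYC was followed through all 16 libraries, which fall into 8 groups of 2. The assay was TT-chem-seq: cells were given 1 mM 4-thiouridine (4-SU), a uridine analogue, for 30 min, so that the captured RNA is mostly RNA made in that window. Untreated cells with and without 4-SU were compared with cells given 1 µM BMH-21, 100 µM DRB or 20 µM ML-60218, each for 1 h or 5 h before collection. The labels name these compounds as inhibitors of RNA polymerase I, II and III in that order, and all inhibitor groups received 4-SU. The paired libraries are labelled as biological replicates, but separate cultures are not stated, and p-values here reflect only how far such libraries differ from each other.

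MYC encodes a basic helix-loop-helix leucine zipper transcription factor that pairs with MAX and binds E-box sequences near genes for ribosome production, metabolism and cell growth. Both its mRNA and its protein turn over quickly, so its transcription is tightly coupled to its abundance. Its promoter holds paused RNA polymerase II, and MYC protein raises transcription by all 3 polymerases, including that of ribosomal RNA by polymerase I. DRB is a nucleoside analogue that blocks CDK9, the kinase of P-TEFb that releases paused polymerase II. BMH-21 binds GC-rich DNA and causes loss of the large polymerase I subunit.

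The MYC region, uc064qdk.2 in the files, lies on the plus strand of chromosome 8 from 127736068 to 127741434 in GRCh38 and spans 5367 bp. The RefSeq gene in GRCh38.p14 runs from 127735434 to 127742951, so the counted region starts 634 bp after the annotated start, ends 1517 bp before the annotated end and takes in 71.4% of its length. The region holds exons and introns, which were counted together. Over the 6453 regions that could be matched to RefSeq by name, the median offset was 0 bp at either end. The counting command in the labels names no strand, so transcription across the region from the opposite strand cannot be told apart from that of MYC.

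Depth differed widely between libraries. Tags assigned to the mRNA table ran from 55846 to 6059929, and those of MYC from 163 to 6871. Ribosomal RNA responded to BMH-21: the median level of the 5 rRNA precursor units was 12.7% and 19.5% of untreated in the 2 libraries at 1 h, in the authors' deposited ratios. At 5 h of BMH-21 that level was 36.7% and 39.7%. Over all regions of the mRNA table, the spike-in level was 33.3% ± 3.88 of untreated (SD, n = 2) after 1 h of DRB and 17.3% ± 0.425 after 5 h. Summed over tRNA genes, the spike-in level was not below untreated under ML-60218, at 118% to 150% of untreated over its 4 libraries. ABL1, of the fusion that defines the parent leukaemia, had 173 and 316.5 tags in untreated cells. Its fusion partner BCR had no region under that symbol in the mRNA table. Of 8 blood lineage genes looked for, GATA1 had 8 and 12.5 tags and SPI1 2.5 and 4.5. The other 6 had no region under their symbols.

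MYC is given on 2 scales. Relative to mRNA, its tags were divided by the mRNA total with a trimmed-mean (TMM) adjustment and scaled to a total of 1000000 mRNA tags, written as mRNA CPM, so the value is its share of new mRNA. On the spike-in scale, yeast RNA added to each sample set the reference, and the value is the authors' deposited ratio to the same-numbered untreated library. That value is 100% in untreated cells by construction. Fewer transcribing cells and less new RNA per cell cannot be told apart in these bulk samples.

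In untreated cells MYC was among the most densely labelled regions. Its 2 untreated libraries were at 2011 and 2204 mRNA CPM, with 95% Poisson intervals of 1926 to 2099 and 2134 to 2276, which cover counting error only. Per kilobase of region the level was 393 ± 25.4 mRNA CPM (SD, n = 2). Of 5531 other tested regions 6 had a higher level per kilobase, and the median was 2.92. Among 391 gene bodies of like span (between 3578 and 8050.5 bp, with at least 50 untreated tags on average) 4 were higher and the median was 26.

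Without 4-SU, 334 and 163 MYC tags were recovered, which came to 0.769% and 1.43% of untreated by spike-in. The gene bodies of like span had a median of 0.958% there. MYC signal was 6.44 log2 units higher with 4-SU than without (SE 0.29, limma adjusted p = 5.2e-13), where limma called 84.3% of the 5769 regions tested in that comparison higher. Relative to mRNA the unlabelled libraries held 1634 and 1157 mRNA CPM of MYC, both below the untreated libraries. That difference was 0.61 (SE 0.21, limma adjusted p = 0.032, with 41.4% of regions called), and it did not pass the threshold when one of 3 of the 4 libraries was left out, with adjusted p from 0.0856 to 0.257.

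**Figure D1:**
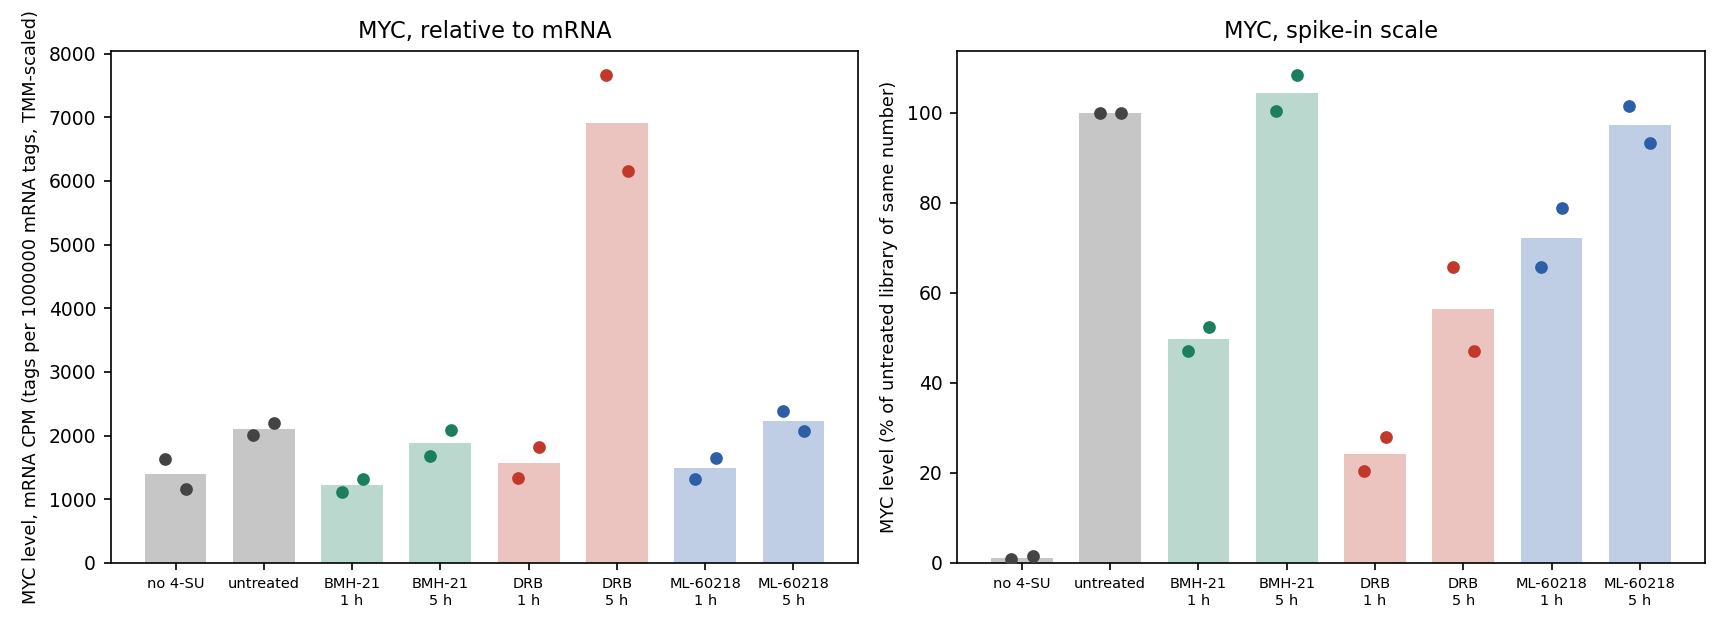
MYC in each library. The left panel gives mRNA CPM, tags per 1000000 mRNA tags after TMM scaling, and the right panel the spike-in level as a percentage of its same-numbered untreated library; points are libraries and bars their mean over 2 libraries. The 2 libraries of 5 h of DRB stand above all others on the left (6158 and 7664), while on the right they lie at 47.0% and 65.7% of untreated.

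MYC was lowest of the labelled groups after 1 h of DRB on the spike-in scale, and after 5 h it was higher again while the mRNA table as a whole was lower still. After 1 h the spike-in level was 20.3% and 28% of untreated, from 232.5 and 499.5 tags. After 5 h it was 65.7% and 47.0%, from 499 and 341 tags. Both libraries at 5 h stood above both at 1 h and below untreated, and the counting intervals of the 2 libraries of a time did not overlap (17.8% to 23.1% and 25.6% to 30.6% at 1 h, 60.03% to 71.7% and 42.2% to 52.3% at 5 h).

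On the spike-in scale MYC fell by 2.06 log2 units after 1 h of DRB, which is 4.17-fold lower (SE 0.18, 95% interval -2.46 to -1.66, limma adjusted p = 5.0e-07). It remained 0.85 below untreated at 5 h, or 1.80-fold lower (SE 0.18, interval -1.246 to -0.45, limma adjusted p = 0.00079). Lower calls were common, at 69.5% of 5532 regions at 1 h and 76.3% at 5 h. Leaving out the first or the second 5 h library moved the 5 h change to between -1.16 and -0.53.

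From 1 h to 5 h of DRB, MYC rose by 1.21 on the spike-in scale (SE 0.18, interval 0.81 to 1.61, limma adjusted p = 0.00010). limma called 14% of regions higher and 40.4% lower in this comparison, and the median over all regions was -0.50. A rise larger than that of MYC was seen in 10.8% of the regions tested. With only the 4 DRB libraries in the fit, the adjusted p was 0.0898.

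Relative to mRNA, the same libraries gave a different sign at 5 h. MYC held 1332 and 1813 mRNA CPM after 1 h of DRB and 7664 and 6158 after 5 h, against 2011 and 2204 in untreated cells. Both 1 h libraries were below both untreated libraries, and both 5 h libraries were above every other library of the series. The 5 h share was higher than untreated by 1.64 log2 units (SE 0.19, interval 1.22 to 2.05, limma adjusted p = 3.4e-05), and 25.6% of regions were called higher.

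The 1 h share was 0.47 below untreated (SE 0.19, limma adjusted p = 0.062), which did not pass. edgeR put it at -0.45 with adjusted p = 0.038, where it called 32.2% of regions lower, and DESeq2 at -0.25 with adjusted p = 0.24. Between 1 h and 5 h the share rose by 2.11 (SE 0.19, limma adjusted p = 5.9e-06), beside 32.6% of regions called higher. The mRNA totals behind the 5 h values were the smallest of the series, 65600 and 55846 tags.

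**Figure D2:**
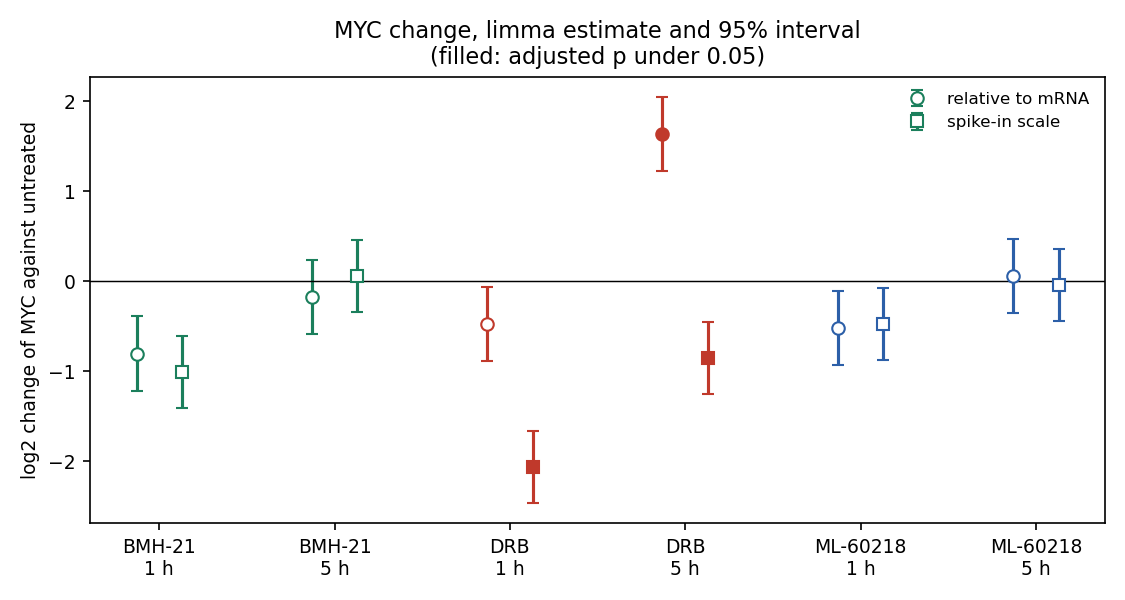
Change of MYC against untreated cells under each inhibitor and time, as log2, with the limma estimate and its 95% interval. Circles are relative to mRNA and squares on the spike-in scale; filled symbols have an adjusted p under 0.05. After 5 h of DRB the share of mRNA lies at 1.64 and the spike-in level at -0.85.

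MYC was then set against gene bodies of like span, because polymerase that was already elongating leaves a short region sooner than a long one. Their median spike-in level was 9.09% of untreated at 1 h and 8.31% at 5 h, and MYC lay at 24.2% ± 5.44 and 56.4% ± 13.2 (SD, n = 2). At 1 h MYC was above 84.4% of them, within the 10th to 90th percentile of 2.02% to 32.1%. At 5 h it was above 97.2%, with 11 of 391 higher and a 90th percentile of 30.5%. Both MYC libraries at 5 h were above that percentile.

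The change from 1 h to 5 h of DRB had a median of -0.03 over these gene bodies on the spike-in scale, and 30 of 391 rose by more than MYC. limma called 52 of them higher and 67 lower, beside 14% and 40.4% of all regions. These genes share their libraries with MYC and are not replicates, so the position of MYC among them is a description.

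**Figure D3:**
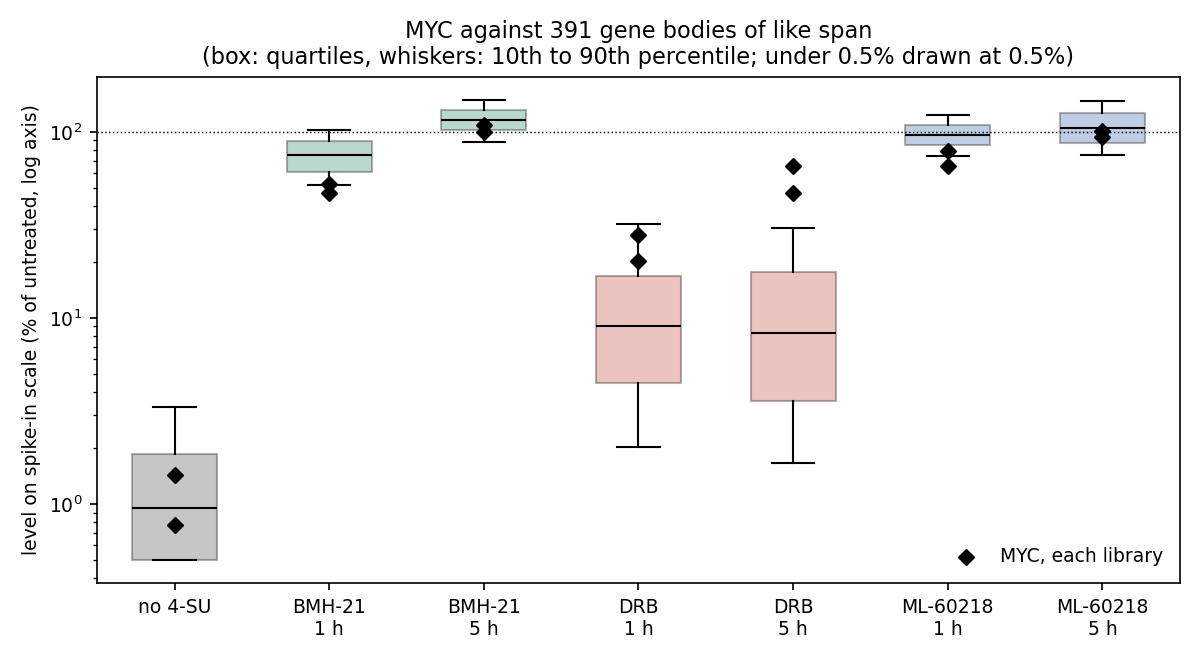
Spike-in level of MYC in each library (diamonds) against the 391 gene bodies of like span (boxes with quartiles, whiskers from the 10th to the 90th percentile, mean of 2 libraries per gene), as a percentage of untreated on a log axis. MYC lies at 47.0% and 65.7% after 5 h of DRB, where the 90th percentile is 30.5%, and at 47.0% and 52.5% after 1 h of BMH-21, on either side of the 10th percentile of 51.9%.

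Other genes with short-lived transcripts were set beside MYC under DRB, from a list of 24 of which 11 were tested. All 11 fell after 1 h on the spike-in scale by limma, with a median of -3.34 against -1.49 over all regions (beside the 69.5% of regions called lower). The gene bodies of like span to MYC were close to the list, with a median of -3.27 and 379 of 391 called lower. MYC, at -2.06, was less far below untreated than the median of the list. From 1 h to 5 h 5 of the 11 rose and 2 fell (beside 14% and 40.4% of all regions), and the median was 0.50 against -0.50 over all regions. Gene bodies of like span had a median of -0.03, with 52 of 391 called higher and 67 lower.

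EGR1, an early growth response zinc-finger factor with a region of 3827 bp, was at 13.6% and 19.3% of untreated at 1 h of DRB and 48.8% and 97.5% at 5 h. It rose by 2.03 over that interval (SE 0.23, limma adjusted p = 9.3e-06), the largest change of the list, with no overlap between the times. KLF4, a Krüppel-like pluripotency factor, went from 12.7% to 33.6% in the group means (1.54, limma adjusted p = 0.0017). KLF6, of the same zinc-finger family, went from 3.03% to 7.27% (1.29, adjusted p = 0.0020), and the stress factor ATF3 from 9.51% to 17.5% (0.90, adjusted p = 0.0030).

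SOX4, a developmental factor, went from 5.12% to 2.09% (-1.27, limma adjusted p = 0.0095) and IER5 from 9.88% to 5.51% (-0.84, adjusted p = 0.015). Without 4-SU, gene bodies of like span to MYC had a median of 0.958% of untreated and a 90th percentile of 3.31%. The 5 h level of SOX4 and the 1 h level of KLF6 lie between these values. How far such low levels hold unlabelled RNA was not tested. FOS, a subunit of AP-1, was at 16.9% and 24.9% in the 2 times and MCL1, an anti-apoptotic BCL2 relative, at 15.7% and 17.7%. The changes of those last genes, 0.50 and 0.17, did not pass (limma adjusted p = 0.15 and 0.40). Relative to mRNA, 8 of 11 rose from 1 h to 5 h and none fell, beside 32.6% and 26.1% of all regions. Of the 391 gene bodies of like span, limma called 195 higher and 30 lower in that comparison.

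**Figure D4:**
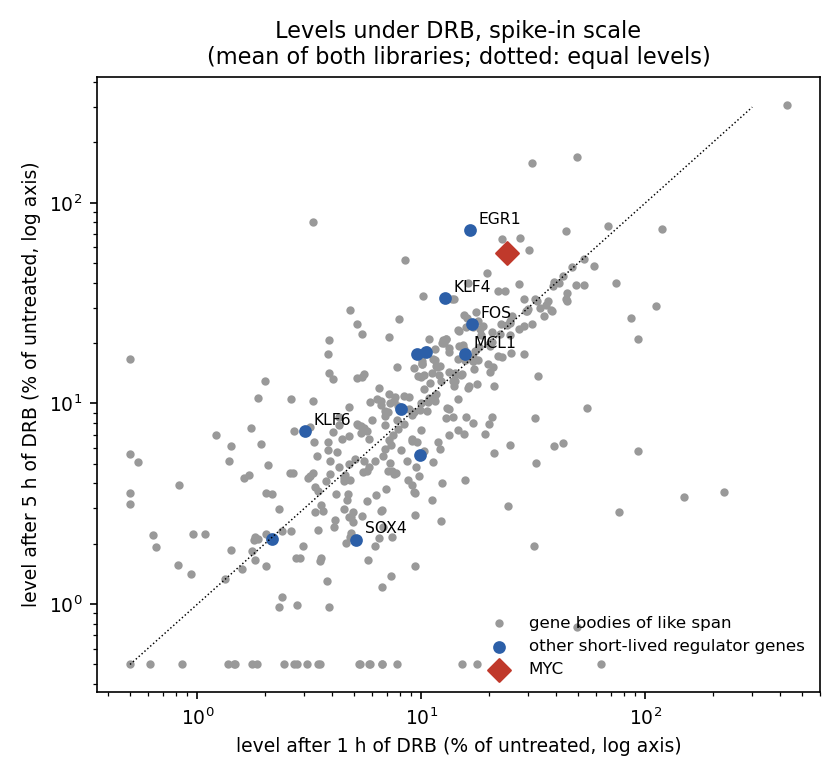
Level after 5 h of DRB against the level after 1 h on the spike-in scale, as a percentage of untreated on log axes, each point the mean of 2 libraries. Grey points are 391 gene bodies of like span (values under 0.5% drawn at 0.5%), blue points the 11 other short-lived regulator genes, and the red diamond MYC, at 24.2% and 56.4%; the dotted line marks equal levels.

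After 1 h of BMH-21 MYC was below untreated in both libraries and on both scales, a difference that edgeR called and limma did not, and at 5 h it was close to the untreated level. After 1 h the spike-in level was 47.0% and 52.5% of untreated, from 6870.5 and 1836 tags. At 5 h it was 100.3% and 108% from 5292.5 and 4942.5 tags. The 1 h libraries lay below untreated and below both 5 h libraries, with no overlap.

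The estimate at 1 h was -1.01 on the spike-in scale (SE 0.18, interval -1.41 to -0.61), or 2.01-fold lower. limma's adjusted p was 0.079 and it called 0% of regions, with 636 of 5532 at an unadjusted p under 0.05. edgeR on the recovered tags called MYC lower (adjusted p = 7.2e-06) along with 17.5% of regions. The same tools parted relative to mRNA, where MYC held 1119 and 1318 mRNA CPM, below both untreated libraries.

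That share was 0.80 below untreated (SE 0.19, interval -1.21 to -0.39, or 1.74-fold lower). limma's adjusted p was 0.62, with 0% called and 313 regions at an unadjusted p under 0.05, while edgeR gave 0.0048 and called 5.37% of regions lower. DESeq2 gave -0.79 with adjusted p = 0.00053. Of all regions tested 97.7% had a higher estimate than MYC on either scale.

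In the authors' deposited unit, tags scaled to one fixed total over the whole library with ribosomal RNA included, the direction turned. MYC had 731.5 and 731.7 such tags after 1 h of BMH-21 against 455 and 551 in untreated cells. The mRNA table then took 5.49% and 6.45% of the library against 2.23% and 2.49%. A direction for MYC under BMH-21 therefore holds relative to mRNA and to the spike-in, not to the library total.

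From 1 h to 5 h of BMH-21 MYC rose by 1.07 on the spike-in scale (SE 0.18, interval 0.67 to 1.47, limma adjusted p = 0.0065), with 9.6% of regions called higher and a median of 0.39. Without any one of the 4 libraries of these times the estimate was 1.01 to 1.13 and the adjusted p 0.0708 to 0.129, so that the call needed both libraries of each time. Relative to mRNA the change was 0.63 (SE 0.19, limma adjusted p = 0.25), with 0.0181% of regions called, and edgeR's adjusted p was 0.0100, with 10.5% called higher. At 5 h the difference from untreated was 0.06 on the spike-in scale (interval -0.34 to 0.46, limma adjusted p = 0.93) and -0.17 relative to mRNA (interval -0.59 to 0.24, adjusted p = 1.0).

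Among gene bodies of like span the median level was 75.4% of untreated after 1 h of BMH-21 and 115% after 5 h, so that MYC was below most of them at both times. Its 49.7% ± 3.90 at 1 h (SD, n = 2) was above 7.93% of them and its 104% ± 5.71 at 5 h above 29.4%. The mRNA table as a whole stood at 85.7% ± 1.68 and 116% ± 2.83.

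Of the 11 other short-lived regulator genes, limma called none and edgeR 5 lower after 1 h of BMH-21 on the spike-in scale, where edgeR called 17.5% of all regions lower. SOX4 was at 48.2% of untreated (edgeR adjusted p = 2.4e-06), KLF2 at 48.3% (2.6e-06) and KLF6 at 53.8% (6.2e-05). From 1 h to 5 h limma called 4 of them higher, KLF10 (1.58), KLF2 (1.69), KLF6 (1.11) and SOX4, with adjusted p from 0.0048 to 0.046, beside 9.6% of all regions. EGR1 was at 101% at 1 h and FOS at 115%, so the genes of the list did not share a direction.

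No difference of MYC from untreated was called under ML-60218 by limma or edgeR. The spike-in level was 65.7% and 78.7% of untreated after 1 h, from 714 and 884.5 tags, and 101% and 93.2% after 5 h, from 2273 and 1576 tags. The 1 h libraries were below untreated and below both 5 h libraries. The estimate at 1 h was -0.48 (SE 0.18, interval -0.88 to -0.07, limma adjusted p = 1.0, edgeR adjusted p = 0.27), and 0% of regions were called by limma, with 222 at an unadjusted p under 0.05.

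At 5 h the spike-in estimate was -0.04 (interval -0.44 to 0.36, limma adjusted p = 0.96). Relative to mRNA MYC held 1323 and 1647 mRNA CPM at 1 h and 2382 and 2074 at 5 h, and the changes were -0.52 (interval -0.93 to -0.11, limma adjusted p = 1.0) and 0.06 (interval -0.35 to 0.47, adjusted p = 0.99). The change between times was 0.58 relative to mRNA (SE 0.19, limma adjusted p = 0.21), where edgeR gave 0.031 and called 8.03% of regions higher. On the spike-in scale it was 0.43 (limma adjusted p = 0.23, edgeR 0.064).

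MYC at 1 h of ML-60218 lay, as under BMH-21, in the lower part of gene bodies of like span, above 7.93% of them and with a mean of 72.2% ± 9.20 (SD, n = 2) against a median of 95.5%. At 5 h it was above 39.6%. The inhibitors of polymerases I and III were compared directly at matched times. After 1 h MYC was 0.53 lower under BMH-21 than under ML-60218 on the spike-in scale (SE 0.18, interval -0.93 to -0.13, limma adjusted p = 0.35, with 0% called and 530 regions at an unadjusted p under 0.05), and edgeR gave adjusted p = 0.030 and called 8.06% of regions lower. Relative to mRNA that difference was -0.28 (interval -0.69 to 0.13, limma adjusted p = 1.0), and at 5 h the 2 scales gave -0.23 (interval -0.64 to 0.18) and 0.10 (interval -0.30 to 0.50), neither past the threshold.

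In order of spike-in level, MYC ran from 5 h of BMH-21 (104% ± 5.71) through untreated, 5 h of ML-60218 (97.3% ± 5.83), 1 h of ML-60218 (72.2% ± 9.20), 5 h of DRB (56.4% ± 13.2), 1 h of BMH-21 (49.7% ± 3.90) and 1 h of DRB (24.2% ± 5.44) to no 4-SU (1.10% ± 0.467; all SD, n = 2). The first 3 groups lay within 93.2% and 108%, and no difference from untreated was called there. After 5 h of DRB the libraries (47.0% and 65.7%) overlapped with those of 1 h of BMH-21 (47.0% and 52.5%) and lay just below the lower library of 1 h of ML-60218 (65.7%), and these neighbours were not tested against each other. The 1 h DRB libraries did not overlap with any group above them.

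The change from 1 h to 5 h was also compared between inhibitors, with tests added after the values had been seen. Relative to mRNA MYC rose by more under DRB than it changed under BMH-21 or ML-60218, by margins of 1.48 and 1.53 (limma adjusted p = 0.0012 and 0.0010), beside 23.8% and 23.5% of regions called higher. By spike-in the margin over ML-60218 was 0.78 (limma adjusted p = 0.029, 10.9% called higher), and that over BMH-21 was 0.15 and did not pass (adjusted p = 0.67).

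Genes with the pattern most like that of MYC were sought among 3440 other tested genes with at least 50 untreated tags. The 6 changes against untreated share their untreated libraries, so likeness is given as a description. Over these changes relative to mRNA, the smallest root mean square differences from MYC were those of CRABP2 (0.18), FAM161A (0.20), POU5F1B (0.20), JAM2 (0.24), STIP1 (0.32) and NDUFAF1 (0.34), where the median gene had 1.20. Across the 14 labelled libraries the highest Pearson correlations were those of POU5F1B (0.97), CRABP2 (0.97), C21orf33 (0.96) and PLEKHG2 (0.96), with 31 genes over 0.9 and a median of -0.35. Such correlations rest in part on the 5 h DRB libraries, where MYC stood apart, and on the group structure that all genes share.

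CRABP2, which carries retinoic acid to its nuclear receptors, had a spike-in level of 48.0% and 57.6% after 1 h of BMH-21, 22% and 32.8% after 1 h of DRB, and 64.4% and 69.5% after 5 h of DRB. Its share of mRNA was 1.87 higher than untreated after 5 h of DRB (limma adjusted p = 7.9e-05). JAM2, a junctional adhesion molecule, and STIP1, which links HSP70 to HSP90, were 1.56 and 1.11 higher in that comparison (limma adjusted p = 0.00012 and 0.0082). All 6 of the genes closest to MYC were called higher by limma at 5 h of DRB, which the choice of genes fixes. The regions of these 6 ran from 5781 to 78292 bp, so likeness to MYC was not limited to like spans.

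**Figure D5:**
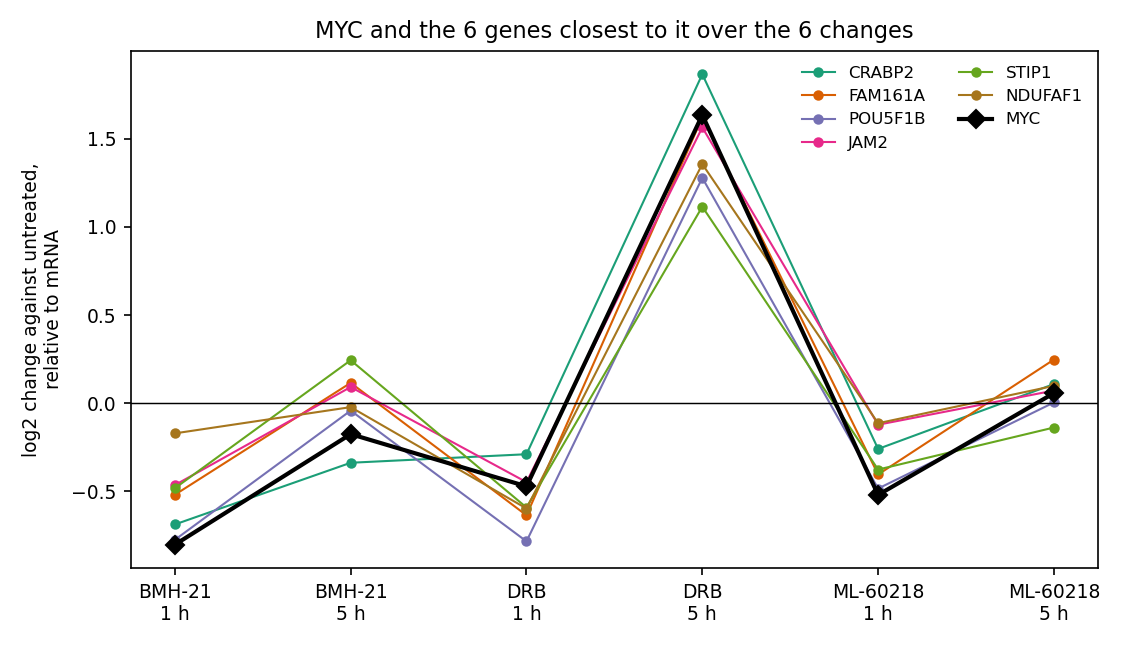
Log2 changes against untreated cells, relative to mRNA, for MYC (black) and the 6 genes with the smallest root mean square difference from it, each point the limma estimate from 2 libraries against 2. All lie between 1.11 and 1.87 after 5 h of DRB, MYC at 1.64.

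POU5F1B, a retrogene copy of the pluripotency gene POU5F1, lies upstream of MYC on chromosome 8 from 127414289 to 127420069, 315999 bp from the MYC region. Its sequence is close to that of POU5F1, so its tags may be shared with that gene and its values are uncertain. It had 101 and 178 tags in untreated cells. Its spike-in level was 43.2% and 57.1% after 1 h of BMH-21, 116% and 113% after 5 h, 14.5% and 24.5% after 1 h of DRB, and 51.9% and 37.3% after 5 h. The DRB values rest on 8, 21, 19 and 13 tags.

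In the tests POU5F1B was 0.78 lower than untreated relative to mRNA at 1 h of DRB (limma adjusted p = 0.042, edgeR adjusted p = 0.051). It was 1.28 higher at 5 h (limma adjusted p = 0.0022). POU5F1B was among the genes picked for likeness to MYC in these changes, so their direction is largely fixed by that choice. On the spike-in scale it was 1.15 below untreated at 5 h (limma adjusted p = 0.0018). At 1 h of BMH-21 it was at -0.98 on that scale (limma adjusted p = 0.14, edgeR adjusted p = 4.4e-05). Relative to mRNA it was then at -0.77 (limma adjusted p = 0.74, edgeR adjusted p = 0.0071).

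The table held 7 regions within 1 Mb of MYC, of which 4 had enough tags to be tested. CASC11, a long non-coding RNA on the minus strand that lies 2101 bp from the MYC region, had 111 tags over all 16 libraries. It had 0 and 7 in untreated cells and 47 and 6.5 after 1 h of BMH-21, in libraries of unlike depth. By spike-in the second of these BMH-21 libraries was at 98.3% of untreated, and the first has no ratio because its untreated count was 0. No difference in CASC11 from untreated was called on the spike-in scale by limma under any inhibitor. Relative to mRNA limma called it higher after 5 h of DRB (adjusted p = 0.0069), where it had 1 and 2 tags, and edgeR did not (adjusted p = 0.071). LINC00824 had 3.5 and 3 tags in untreated cells and 32 and 15 after 5 h of DRB, and was 3.81 higher there on the spike-in scale (limma adjusted p = 1.7e-06). It also had 6 and 51 tags without 4-SU, so its largest count was in a library without label. PCAT1 had 12 and 10.5 tags in untreated cells and 158.5 and 6.5 after 1 h of BMH-21, again at unlike depth. Its spike-in level there was 190% and 65.6% of untreated, a spread between the 2 libraries of a group larger than its difference between groups. The other 3 had at most 12.5 tags in all libraries together.

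Partners, regulators and targets of MYC were described from lists. Of 12 genes of the MYC family and its MAX network 2 were tested, of 13 genes that control the stability of MYC protein 2, of 15 regulators of MYC transcription and mRNA 5, of 30 target genes 3 and of 19 genes of polymerase II pause release 5. The untested ones had no region under their symbols or had too few tags. After 1 h of BMH-21 limma called none of these 17 on the spike-in scale. edgeR called 5 lower, against 17.5% of all regions.

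Among them were all 3 tested targets. FBL, the methyltransferase fibrillarin that modifies ribosomal RNA, was at 64.5% of untreated (-0.63, edgeR adjusted p = 0.0021). SRM, the spermidine synthase, was at 64% (-0.64, adjusted p = 0.0015), and TERT, the catalytic subunit of telomerase, at 54.6% (-0.87, adjusted p = 1.4e-05). The level of SRM lay within the quartiles of the gene bodies of like span to MYC, 60.5% and 89.3%. A level such as that of SRM was thus not particular to targets of MYC. Relative to mRNA edgeR called TERT lower (adjusted p = 0.0035), beside 5.37% of regions, but not FBL or SRM (edgeR adjusted p = 0.11 and 0.12). SUPT5H, a subunit of the pausing factor DSIF, was at 73.3% (-0.45, edgeR adjusted p = 0.047). The regulator RPL11, a ribosomal protein that binds MYC mRNA, was at 102%.

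Under DRB the calls were nearly uniform. limma called 16 of the 17 lower after 1 h and all 17 after 5 h on the spike-in scale, beside 69.5% and 76.3% of all regions. From 1 h to 5 h none of the 17 was called higher and 8 were called lower, beside 14% and 40.4% of all regions.

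SRM, whose region of 5437 bp is close to that of MYC, was at 25% and 25.7% of untreated at the 2 times. Its change between them was 0.09 (limma adjusted p = 0.73), where that of MYC was 1.21. CCNT1, the cyclin of P-TEFb, went from 9.41% to 4.80% (-0.89, limma adjusted p = 0.0017). CDK7, the kinase of TFIIH, was at 14.5% and 21.2% (0.48, adjusted p = 0.11). MXD1, a MAX partner that opposes MYC, was at 9.08% and 11.7% (0.30, adjusted p = 0.33).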

How the data were processed

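The region, the gene lists and the tests were chosen with earlier results of these data known. Nascent RNA was sequenced from 16 libraries. The submitters' processing notes name Trim Galore 0.6.5, FastQC 0.11.9, STAR 2.7.7a and HOMER, with GRCh38 and the yeast genome R64. The columns used are coverage signal, deposited by the authors as HOMER tags scaled to one fixed library total; of the values under 200 tags, 91787 of 91787 were multiples of 0.5 tag (within 0.005 deposited units), which gave back tag counts. The deposited ratio columns, per the file headers, relate spike-in scaled values to the untreated library of the same number; 40 columns of per-sample values were not used.

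The main test was limma 3.58.1 (trend) on log2(value + 0.5) over the 14 labelled libraries, for 5532 regions that passed edgeR's filterByExpr with a minimum of 10 tags, and over all 16 for the comparison with no 4-SU. Values were relative to the mRNA total with TMM factors, or on the spike-in scale with the replicate number as a block, because the ratios link only libraries of one number. P-values were adjusted by Benjamini-Hochberg over all regions, for each of 12 comparisons on 2 scales. A fold change is on that log2 scale and understates the change of low genes. edgeR 4.0.16 on the recovered tags (with fractions of 0.5) and DESeq2 1.42.0 (rounded) were alternatives. The code was tested on simulated data. Named genes were MYC, the 6 and 4 genes most like it, table regions within 1 Mb and members of the lists with the smallest adjusted p or as examples. One member of the pause release list is not reported here by name.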

Additional observations from a re-analysis of the deposited data

Results flagged for a closer look

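The change of MYC from 1 h to 5 h was compared between inhibitors, in tests added after its values had been seen. Relative to mRNA the rise under DRB exceeded the change under BMH-21 by 1.48 log2 units (SE 0.26, limma adjusted p = 0.0012), and that under ML-60218 by 1.53 (SE 0.26, limma adjusted p = 0.0010). Such differences were common, since limma called 23.8% and 23.5% of 5532 regions higher in these 2 comparisons. On the spike-in scale the rise under DRB exceeded that under ML-60218 by 0.78 (SE 0.26, limma adjusted p = 0.029, with 10.9% of regions called higher). The rise under DRB was not shown to exceed that under BMH-21 on that scale (0.15, SE 0.26, limma adjusted p = 0.67). BMH-21 against ML-60218 gave 0.05 relative to mRNA and 0.63 on the spike-in scale, neither past the threshold (limma adjusted p = 1.0 and 0.26). The mRNA totals of the 5 h DRB libraries were the smallest of the series, and their part in these differences was not tested.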

How the results depend on the processing

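The calls under DRB on the spike-in scale at 1 h and 5 h, and those relative to mRNA at 5 h and from 1 h to 5 h, kept their direction and passed under every alternative run. The change after 1 h of BMH-21 relative to mRNA passed with edgeR (-0.80), DESeq2 (-0.79), only the 4 libraries compared (-0.80) and a variance per group (-0.80). On the spike-in scale it passed with a pseudocount of 2 (-1.0), the 4 libraries (-1.01), a variance per group (-1.01) and edgeR (-1.01). The change from 1 h to 5 h of BMH-21 relative to mRNA passed with edgeR (0.63), DESeq2 (0.60), the 4 libraries (0.63) and a variance per group (0.63). That of ML-60218 relative to mRNA passed with edgeR (0.57), DESeq2 (0.56) and a variance per group (0.58), and on the spike-in scale with a variance per group (0.43). BMH-21 against ML-60218 at 1 h on the spike-in scale passed with the 4 libraries (-0.53), a variance per group (-0.53) and edgeR (-0.54). The change after 1 h of DRB relative to mRNA passed with edgeR (-0.45) and without TMM (-0.47). The rise from 1 h to 5 h of DRB on the spike-in scale missed the threshold with the 4 libraries (1.21). Relative to mRNA, untreated against no 4-SU missed it with DESeq2 size factors in limma (0.47), no filter (0.61), the 4 libraries (0.61) and a variance per group (0.61). The cause of these differences was not tested.

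Leaving out 1 library at a time gave -0.69 to -0.25 for 1 h of DRB relative to mRNA, with a call only without its second library (adjusted p = 0.024). The same gave 0.36 to 0.86 for untreated against no 4-SU, 1.01 to 1.13 for BMH-21 over time on the spike-in scale and 0.90 to 1.53 for DRB over time. Estimates near 0 changed sign: 5 h of ML-60218 (-0.04 to 0.15 relative to mRNA, -0.14 to 0.06 on the spike-in scale) and BMH-21 against ML-60218 at 5 h (-0.00 to 0.20).

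limma and edgeR differed by more than 1.5 times in regions called: 0 and 440 for 1 h of BMH-21 relative to mRNA, 0 and 185 at 5 h, 1 and 1014 over time, and 0 and 1045 for 1 h on the spike-in scale. They differed likewise in most comparisons of ML-60218 (0 and 358 at 5 h, 9 and 664 over time, relative to mRNA). For DRB over time relative to mRNA the counts were 3248 and 2049. Same-numbered libraries deviated together in part, with a correlation over 0.1 in 12 of 21 pairs of groups (-0.04 to 0.44, median 0.15). The main fit relative to mRNA nevertheless had no replicate term, while the spike-in fit had one. Adding the replicate block relative to mRNA changed no call on MYC (adjusted p = 0.28 for 1 h of BMH-21 and 0.052 for 1 h of DRB), nor did leaving it out on the spike-in scale (0.20 for 1 h of BMH-21). With no minimum of untreated tags, MYC was above 63.7% of gene bodies of like span at 1 h of DRB, 85.2% at 5 h and 11.7% at 1 h of ML-60218. Libraries of DRB at one time differed by more than counting error.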
